A study of Mus musculus with 12 samples.

Results

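Ptprt, Ston2, Itgb3bp and Rarres1 are 4 of the 20788 genes in the expression table of mouse F1 testes. They were chosen by a small unadjusted p in the comparison of the knockdown group with 3NC, with no stated threshold, and all 4 passed the filter on low counts that left 16388 genes for testing. The values in that comparison are therefore a description of how the genes were picked, and only the comparison of the overexpression group with 5NC rests on libraries that the choice did not use.

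The study asked how lncRNA5251, a long non-coding RNA, bears on spermatogenesis across generations. Testes of F1 mice were sequenced as 12 RNA libraries, 3 in each of 4 groups, named here by the genotype in the labels (3NC, 5NC, lncRNA5251 knockdown and lncRNA5251 overexpression). Per the study, the testes of F0 males were given lentivirus at 4 weeks of age, and the F1 offspring were sampled at 8 weeks. The knockdown group had fathers treated with a hairpin RNA virus against lncRNA5251, and the fathers of 3NC had the matching control virus. The overexpression group had fathers treated with a virus carrying lncRNA5251 for overexpression, and those of 5NC had the control virus of that kind. All 4 groups thus descend from virus-treated males, and the strain is "IRC mouse" in the labels and ICR in the study. The series design text differs from the study in placing the virus in the F1 testes themselves. Nothing in the labels ties each library to an animal of its own, so p-values here reflect variation between libraries that could be technical. The level of lncRNA5251 was not analysed here, so the group labels were not checked against it.

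Between 12719699 and 15771655 estimated reads were counted per library, and levels are given as CPM, counts scaled to 1000000 reads per library after adjustment by TMM (a correction for differences in composition). Markers of the testis were present in every library. The 10 elongating spermatid markers summed to 21440 to 27190 CPM and the 10 Sertoli cell markers to 759 to 1057 CPM, both without TMM scaling. 3NC replicate 2 and knockdown replicate 1 stood apart from the other 10 libraries on the first principal component, which held 39.4% of the variance. Their lymphocyte markers summed to 166.9 and 126.2 CPM, against 5.96 to 15.03 CPM in the others, and their macrophage markers to 315.5 and 442.7 CPM, against 82.7 to 106.9 CPM. The fold changes and tests of the 4 genes, and their similarity to the genes most like them, are also given with both left out.

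The 4 genes act in separate processes. Ptprt encodes a receptor-type protein tyrosine phosphatase, a class of membrane proteins that remove phosphate from tyrosines, and its subfamily also mediates adhesion between cells. Ston2 encodes stonin 2, an adaptor that brings synaptotagmin into clathrin-coated pits together with the AP-2 complex during endocytosis. Itgb3bp encodes CENP-R, a subunit of the constitutive network on which the kinetochore is built at the centromere, and the same protein is known as a binding partner of an integrin tail and of nuclear receptors. Rarres1 was named as a gene that responds to retinoic acid, the vitamin A derivative that starts meiosis in germ cells, and its protein is related in sequence to the carboxypeptidase inhibitor latexin.

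All 4 genes lie on the minus strand of build GRCm38.p6, each on its own chromosome. Ptprt (gene ID 19281) spans chr2:161521988-162661147, and Ston2 (gene ID 108800) spans chr12:91633009-91786436. Itgb3bp (gene ID 67733) spans chr4:99767406-99829215, and Rarres1 (gene ID 109222) spans chr3:67478886-67515523. Ptprt is by far the longest of the 4, at 1139160 bases against 36638 bases for Rarres1. Per length of transcript, Itgb3bp had the highest mean level over the 12 libraries at 45.5 FPKM, above 84.8% of the tested genes. Rarres1 followed at 9.20 FPKM and Ston2 at 3.72 FPKM. Ptprt was near the bottom at 0.138 FPKM, above 0.708% of the tested genes. Annotated genes that overlap Ptprt (Ptprtos, Gm46774), Ston2 (Gm51993, Gm16876, Gm34718) and Rarres1 (Gm40067) have no row of their own, and since strand is not stated for the counting, their reads cannot be told apart from those of the 4 genes.

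The promoter is shown for Ston2 and Rarres1, the gene with higher and a gene with lower levels in the knockdown group than in all 9 other libraries, as the 250 bases that precede the annotated start, read 5′ to 3′ on the minus strand (RefSeq, GRCm38.p6). They cover chr12:91786437-91786686 for Ston2 and chr3:67515524-67515773 for Rarres1. Capitals mark the motifs that were found.
Ston2: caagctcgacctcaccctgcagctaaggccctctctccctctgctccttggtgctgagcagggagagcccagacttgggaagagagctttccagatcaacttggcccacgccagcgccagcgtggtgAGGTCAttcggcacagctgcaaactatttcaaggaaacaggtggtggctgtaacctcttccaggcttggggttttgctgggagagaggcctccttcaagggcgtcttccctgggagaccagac
Rarres1: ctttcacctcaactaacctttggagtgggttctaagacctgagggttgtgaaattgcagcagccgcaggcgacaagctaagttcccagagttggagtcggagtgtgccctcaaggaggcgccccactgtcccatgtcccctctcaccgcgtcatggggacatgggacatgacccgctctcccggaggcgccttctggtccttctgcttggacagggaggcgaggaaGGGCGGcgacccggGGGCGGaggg
Motifs were searched on both strands of each window. They were the core promoter element TATAAA, present in 12.4% of 32851 promoter windows of the same length. The element CCAAT, bound by the factor NF-Y, is present in 33.9% of them. The GC box, spelled GGGCGG and bound by Sp1, is present in 32.7%. The half-site of nuclear receptors, spelled AGGTCA, is present in 14.0%, and the cAMP response element, spelled TGACGTCA, in 1.55%. The Ston2 window held 1 nuclear receptor half-site, 123 bases before the start. The Rarres1 window held 2 GC boxes, 24 and 10 bases before the start. The window of Itgb3bp, chr4:99829159-99829408, precedes the start in the promoter table, which lies inside the span of the gene given above, so its last bases are within that span. It also covers transcribed bases of the neighbour Efcab7 and is not printed, and none of the 5 motifs was in it. The window of Ptprt, which is also not printed, had 3 GC boxes, 2 of which overlap. The Ptprt window was also the richest in CpG, with 39 CpG against 15 for Itgb3bp, 14 for Rarres1 and 6 for Ston2, where the median of all windows is 6. Ptprt and Rarres1 thus both had GC boxes, the motif present in 32.7% of all windows. Ston2, Itgb3bp and Rarres1 shared no motif among those searched, and these matches describe letters only.

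Ptprt was at 2.38, 3.60 and 3.17 CPM in 3NC replicates 1 to 3 and at 0.759, 0.931 and 0.743 CPM in the knockdown group. It was at 0.374, 1.27 and 0.787 CPM in 5NC and at 1.05, 1.40 and 1.43 CPM in the overexpression group. The 3 libraries of 3NC were thus above all 9 others, which ended at 1.43 CPM, and the knockdown group lay within the range of 5NC. Among all tested genes, 0.214% had 3NC above all 9 other libraries. Few reads stand behind these levels, 141 in the 3NC libraries together, 37 in the knockdown group, 35 in 5NC and 55 in the overexpression group. The log2 fold change was -1.90 (SE 0.366) for knockdown against 3NC and -1.92 (SE 0.368) for 5NC against 3NC, comparisons that share the 3NC libraries. Against 5NC, the knockdown group differed by a log2 fold change of 0.01 (SE 0.387). The low knockdown level was therefore low against 3NC and level with the other vector control.

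Ston2 was at 20.2, 18.8 and 30.6 CPM in 3NC and at 35.1, 44.7 and 61.5 CPM in the knockdown group. In 5NC it was at 28.6, 26.8 and 27.3 CPM, and in the overexpression group at 32.1, 30.4 and 30.4 CPM. All 3 libraries of the knockdown group were above the 9 others, with 35.1 CPM in the lowest of them and 32.1 CPM in the highest of the others, and 0.598% of the tested genes had this pattern. The spread was wide in the groups used for the choice, with 47.1 ± 13.4 CPM (SD, n = 3) in the knockdown group and 23.2 ± 6.46 CPM (SD, n = 3) in 3NC, and narrow in 5NC at 27.6 ± 0.908 CPM (SD, n = 3). The log2 fold change was 1.02 (SE 0.208) against 3NC and 0.77 (SE 0.207) against 5NC. Ston2 was the only one of the 4 with higher levels in the knockdown group.

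Itgb3bp was at 74.8, 82.5 and 96.8 CPM in 3NC and at 50.8, 57.0 and 62.7 CPM in the knockdown group. It was at 69.6, 78.2 and 79.9 CPM in 5NC and at 68.5, 70.9 and 79.4 CPM in the overexpression group. Every knockdown library was below the other 9, whose lowest value was 68.5 CPM in overexpression replicate 1, and 1.1% of the tested genes had this pattern. The difference from 3NC was the smallest of the 4 on the log2 scale, at -0.58 (SE 0.115), and the difference from 5NC was -0.42 (SE 0.115). Itgb3bp was also the best covered, with 2589 reads in the 3 libraries of the knockdown group and 3891 in those of 3NC.

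Rarres1 was at 18.5, 15.5 and 8.31 CPM in 3NC and at 4.87, 5.18 and 5.67 CPM in the knockdown group. It was at 10.9, 14.9 and 14.5 CPM in 5NC and at 9.995, 13.3 and 18.6 CPM in the overexpression group. The knockdown libraries lay below the other 9, as in 1.1% of the tested genes, and close together (5.24 ± 0.405 CPM, SD, n = 3). In contrast, 3NC was spread over more than the distance from its own lowest library to the knockdown group. The log2 fold change was -1.43 (SE 0.294) against 3NC and -1.36 (SE 0.294) against 5NC. Among the remaining groups, 3NC (14.1 ± 5.22 CPM, SD, n = 3), the overexpression group (13.9 ± 4.33 CPM, SD, n = 3) and 5NC (13.4 ± 2.19 CPM, SD, n = 3) were in an order that their spread does not separate. In whole testis, fewer cells of a type and less RNA per cell cannot be told apart.

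**Figure D1:**
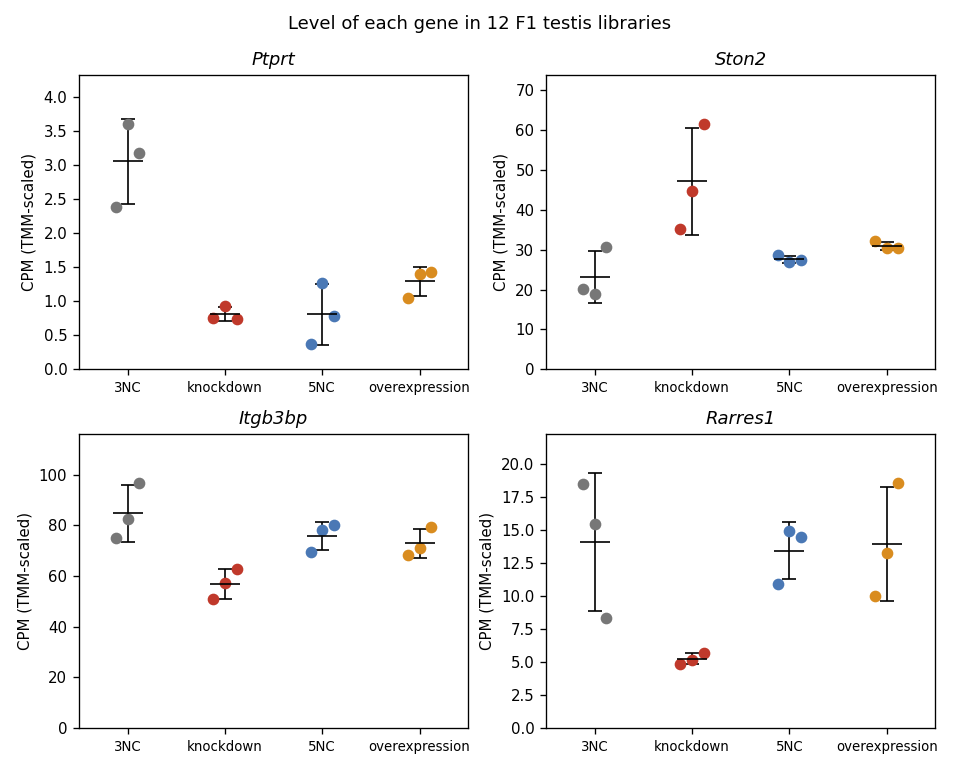
CPM of the 4 genes (y axis, from 0, TMM-scaled) in the 3 libraries of each group (x axis), drawn as points from replicate 1 on the left to 3 on the right, with the mean and SD in black. In Ston2, Itgb3bp and Rarres1 the knockdown points lie outside the range of all 9 other libraries, and in Ptprt the 3NC points do. Of all tested genes, 0.598% had the pattern of Ston2, 1.1% that of Itgb3bp and Rarres1 and 0.214% that of Ptprt.

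The values by which the genes were picked place them at rank 4 (Ptprt, unadjusted p = 0.000265), rank 7 (Itgb3bp, 0.000364), rank 9 (Ston2, 0.000412) and rank 10 (Rarres1, 0.000467) among 16388 genes in edgeR's quasi-likelihood fit. The other genes of the first 10 were Tmprss11a, Cyp21a1, Gm1993, Slc6a15, Klk1b21 and Gm36712, and the gene just after Rarres1 was Gm15114 with a p of 0.000486. With Benjamini-Hochberg adjustment the p of each of the 4 genes was 0.701. In this comparison 0 genes (0%) had an adjusted p under 0.05 in edgeR, 924 (5.64%) had an unadjusted p under 0.05 and 16 passed in DESeq2. The count was 12 without 3NC replicate 3, 2 without knockdown replicate 3 and 1 without overexpression replicate 1. Of all tested genes, 6.36% had the knockdown group below 3NC with no overlap, as Ptprt, Itgb3bp and Rarres1 had, and 4.95% had it above, as Ston2 had. Nothing is read from these counts, since the choice used the same libraries. Without 3NC replicate 2 and knockdown replicate 1, the log2 fold change was -1.72 for Ptprt, 1.06 for Ston2, -0.52 for Itgb3bp and -1.30 for Rarres1.

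The comparison of the overexpression group with 5NC asked whether the 4 genes also differ where lncRNA5251 was overexpressed in the F0 males. In this comparison 51 of 16388 genes (0.311%) had an adjusted p under 0.05 and 1952 (11.9%) an unadjusted one, and none of the 4 genes was among either. That count was 9 without 5NC replicate 2 and likewise without replicate 3, 14 to 26 without 1 of the overexpression libraries, 31 without knockdown replicate 2, and 78 and 87 without 3NC replicates 2 and 3. For Ptprt the log2 fold change was 0.68 (95% interval -0.15 to 1.51), with an adjusted p of 0.518 in edgeR's quasi-likelihood test with Benjamini-Hochberg adjustment. This interval was the widest of the 4. For Ston2 it was 0.17 (95% interval -0.29 to 0.62, adjusted p = 0.826 by the same edgeR test). Itgb3bp had the narrowest interval, with a log2 fold change of -0.06 (-0.31 to 0.19, adjusted p = 0.905 by edgeR). Rarres1 had 0.05 (-0.57 to 0.67, adjusted p = 0.971 by edgeR).

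By the two-sided exact permutation test of CPM in 3 against 3 libraries, p was 0.2 for Ptprt, 0.1 for Ston2, 0.7 for Itgb3bp and 1.0 for Rarres1. The smallest p this design allows is 0.1, so it cannot pass 0.05. Ston2 reached it because the overexpression libraries were all above those of 5NC, at 30.9 ± 0.989 against 27.6 ± 0.908 CPM (SD, n = 3 each), a separation in one or the other direction that 21.3% of the tested genes had. With 3NC replicate 2 and knockdown replicate 1 left out of the fit, the adjusted p in edgeR was 0.414 for Ptprt, 0.652 for Ston2, 0.838 for Itgb3bp and 0.952 for Rarres1.

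**Figure D2:**
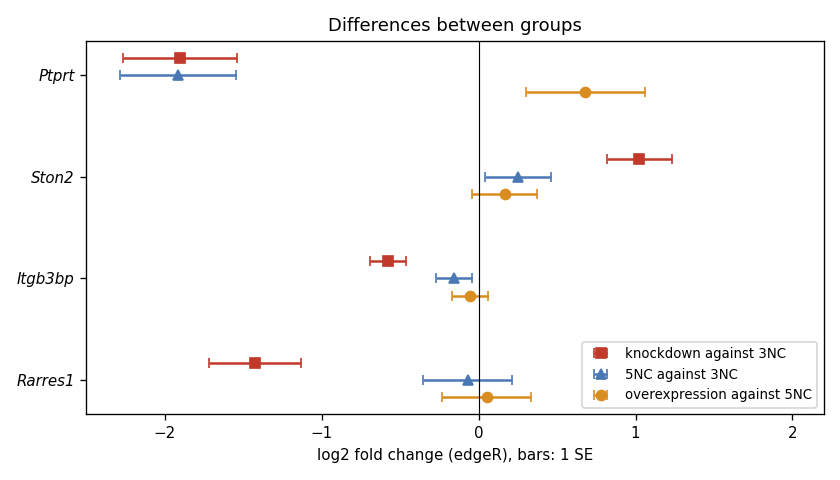
Log2 fold change of each gene (x axis) with 1 SE as a bar, for knockdown against 3NC, 5NC against 3NC and overexpression against 5NC, the first of which chose the genes. For Ptprt the squares and triangles lie together at -1.90 and -1.92, whereas for the other 3 genes 5NC against 3NC lies nearer to 0 than knockdown against 3NC.

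Related genes were taken from lists of each process, with the 4 genes themselves left out. None of the 19 other receptor tyrosine phosphatases, 30 other genes of clathrin and AP-2 endocytosis, 16 other genes of the centromere network and 23 other genes of the retinoic acid pathway passed the adjusted threshold in either comparison. For knockdown against 3NC the median log2 fold change was -0.09, 0.07, -0.03 and 0.04 in these lists, in that order, beside -0.02 over all tested genes. At an unadjusted p under 0.05, only Aak1 and Amph of the endocytosis list and Crabp1 of the retinoic acid list were called, all with higher values in the knockdown group, where 5.64% of all tested genes were called in either direction. For overexpression against 5NC the medians were 0.06, -0.0004, -0.03 and -0.08, beside -0.01 over all tested genes. The unadjusted calls there were Ptprj, Ston1, Amph, Cenpi, Rxra and Stra6 with higher values in the overexpression group, and Ptprd, Cenps and Stra8 with lower values, beside 11.9% of all tested genes.

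The closest relatives of Ptprt are Ptprk, Ptprm and Ptpru, receptors of the same adhesive subfamily. Their log2 fold changes for knockdown against 3NC were -0.02, -0.25 and 0.28 (adjusted p = 0.977, 0.764 and 0.782 in edgeR), against -1.90 for Ptprt. Ston1, the other stonin, had a log2 fold change of 0.22 for knockdown against 3NC and 0.68 for overexpression against 5NC (adjusted p = 0.777 and 0.167 in edgeR). The 5 subunits of the AP-2 complex, which stonin 2 works with, had log2 fold changes between -0.03 (Ap2b1) and 0.22 (Ap2a1) for knockdown against 3NC. Cenpo, Cenpp, Cenpq and Cenpu, which encode the centromere subunits that form a complex beside CENP-R, had log2 fold changes of 0.05, -0.15, -0.22 and -0.11 there. Lxn, the latexin gene that lies 14979 bases from Rarres1, had -0.09, and Rarres2, which shares the name but not the sequence family and encodes the chemoattractant chemerin, had 0.55 with a SE of 0.559. The retinoic acid receptor genes Rara, Rarb and Rarg had 0.08, 0.39 and -0.04. None of these relatives passed in either comparison.

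**Figure D3:**
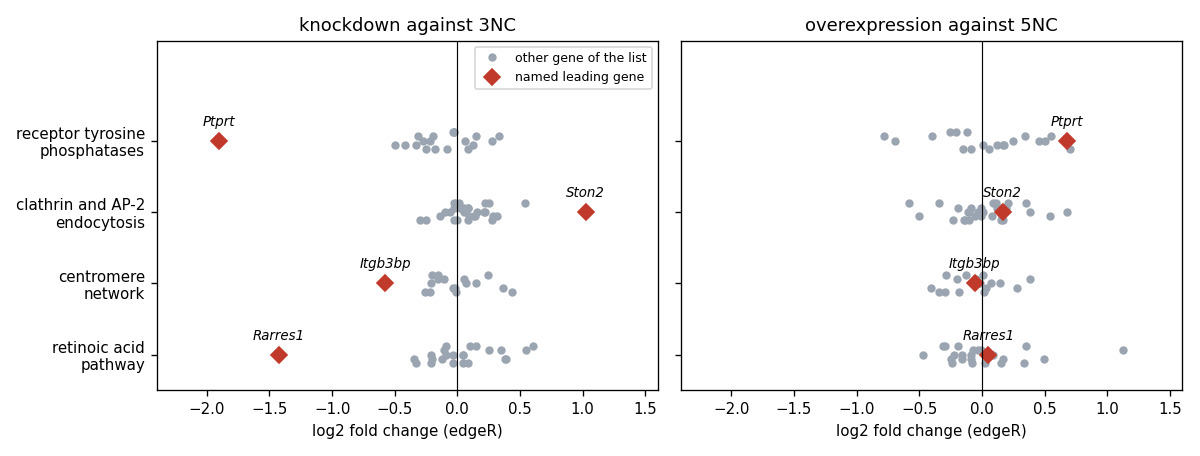
Log2 fold change (x axis) of each gene of the 4 lists (rows), with knockdown against 3NC on the left and overexpression against 5NC on the right, grey points for other genes of a list and a red diamond for the leading gene. On the left each diamond is at the edge of its list, as the choice of the genes would give, and on the right the diamonds of Ston2, Itgb3bp and Rarres1 lie among the other genes near 0 and Ptprt at 0.68.

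The nearest genes on the chromosome are given with their values. For knockdown against 3NC these come from the same 6 libraries that picked the 4 genes and are a description. Efcab7, which encodes a protein with EF-hand domains, lies head to head with Itgb3bp on the plus strand, 230 bases away in RefSeq, and in GENCODE vM21 the first bases of their coding transcripts are separated by 11 bases. A non-coding transcript of Itgb3bp in GENCODE, Itgb3bp-203, also runs across Efcab7 to chr4:99929813, and with strand not stated for the counting their reads may not be fully told apart. Efcab7 was at 29.2 ± 4.34 CPM in 3NC and 21.4 ± 1.24 CPM in the knockdown group (SD, n = 3 each), a log2 fold change of -0.45. Alg6, a glucosyltransferase gene of N-glycan synthesis 3946 bases away on the other side, was at 4.19 ± 0.863 and 2.73 ± 0.322 CPM (SD, n = 3 each), a log2 fold change of -0.62, and the adjusted p of both genes was 0.764 in edgeR. Both genes beside Itgb3bp thus had lower mean values in the knockdown group without passing the test. In overexpression against 5NC they had -0.12 and 0.13, beside -0.06 for Itgb3bp. Gfm1 and Mfsd1, on either side of Rarres1, had log2 fold changes of -0.09 and -0.11 for knockdown against 3NC, and Gtf2a1 and Sel1l, on either side of Ston2, had -0.08 and -0.13. Beside Ptprt, Chd6 had -0.06 and Srsf6 had -0.09, so the nearest tested neighbours of those 3 genes lay close to 0. Of the remaining genes named by the same rule, Emilin3 had 0.48, Tshr -0.14, Pgm1 -0.08 and Iqschfp 0.38, and Cisd3b, Gm40892 and Foxd3 had too few reads to be tested.

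The genes most like each of the 4 across libraries were found by Pearson's r of log2 CPM over the 12 libraries, among 15412 genes of at least 1 CPM on average. These libraries include the ones used for the choice, and the values of 2 genes come from the same libraries, so r is a description. Itgb3bp was most like Fam107b (r = 0.930), Rnf125 (0.899), which encodes a ubiquitin ligase, and Cip2a (0.892), which encodes an inhibitor of protein phosphatase PP2A. Over the 6 libraries of 5NC and the overexpression group alone the values were 0.986, 0.980 and 0.822. These 6 are among the 12 libraries by which the similar genes were found, so their r is not independent of that choice. Ston2 was most like Ceacam20 (0.871), Myo19 (0.863), a mitochondrial myosin gene, and Btbd35f16 (0.846), and Ptprt like Ncoa7 (0.893), Desi2 (0.880) and Rnf11 (0.865). Over the same 6 libraries the values were 0.934, 0.833 and 0.610 for Ston2 and 0.889, 0.694 and 0.932 for Ptprt. Rarres1 was most like Klk1b22 (0.914), Lhcgr (0.912), the receptor for luteinizing hormone on Leydig cells, and Klk1b21 (0.893). In the 6 libraries of 5NC and the overexpression group these were 0.327, 0.713 and 0.295. Over the 10 libraries without 3NC replicate 2 and knockdown replicate 1, r of the 12 named genes lay between 0.802 (Btbd35f16 with Ston2) and 0.900 (Cip2a with Itgb3bp). The kallikrein genes Klk1b21 and Klk1b22 have near-identical copies that can share reads, so their own levels are uncertain. Among the 4 genes themselves, Itgb3bp and Rarres1 had r = 0.686 over the 12 libraries and 0.882 over the 6 of 5NC and the overexpression group. Ston2 had -0.781 and -0.318 with Rarres1, and -0.559 and -0.591 with Itgb3bp. Ptprt had 0.625 and 0.334 with Itgb3bp, 0.401 and 0.538 with Rarres1, and -0.543 and 0.280 with Ston2, which changed sign.

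Because a Leydig cell gene was among those most like Rarres1, the levels of Leydig cell markers are given beside it. In knockdown against 3NC, 7 of the 10 markers had a log2 fold change below 0 and 3 above, with a median of -0.54, and none passed the adjusted threshold. Over all tested genes, 8731 of 16388 had a log2 fold change below 0, and 505 were lower at an unadjusted p under 0.05. Lhcgr (-1.20), Klk1b24 (-2.91), Star (-0.97), which carries cholesterol into mitochondria, and Cyp17a1 (-1.17), an enzyme of androgen synthesis, had an unadjusted p under 0.05. Insl3 (0.25), Hsd3b1 (0.18) and Nr5a1 (0.14), also Leydig cell genes, had higher mean values in the knockdown group, so the markers did not share a direction. In overexpression against 5NC the median was 0.09.

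The summed level of the 10 markers, without TMM scaling, was 2164, 2061 and 1060 CPM in 3NC and 1544, 1371 and 1128 CPM in the knockdown group. It was 2120, 1566 and 1942 CPM in 5NC and 1525, 1914 and 2141 CPM in the overexpression group. Within 3NC and within the overexpression group the libraries had the same order in Rarres1 as in the summed markers, and within 5NC and the knockdown group they did not. 3NC replicate 3 had the lowest sum of all 12 libraries and 8.31 CPM of Rarres1, whereas knockdown replicate 1 had a higher sum and 4.87 CPM. At sums between 1525 and 1566 CPM, Rarres1 was at 4.87 CPM in knockdown replicate 1, 9.995 CPM in overexpression replicate 1 and 14.9 CPM in 5NC replicate 2. The sum rests most on 2 abundant markers that went opposite ways. Mean Cyp17a1 was 591 CPM in 3NC and 263 CPM in the knockdown group, and mean Insl3 was 551 and 658 CPM, all TMM-scaled. Equal sums therefore need not mean equal Leydig cell content. The part of Leydig cell content in the Rarres1 values was not tested.

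**Figure D4:**
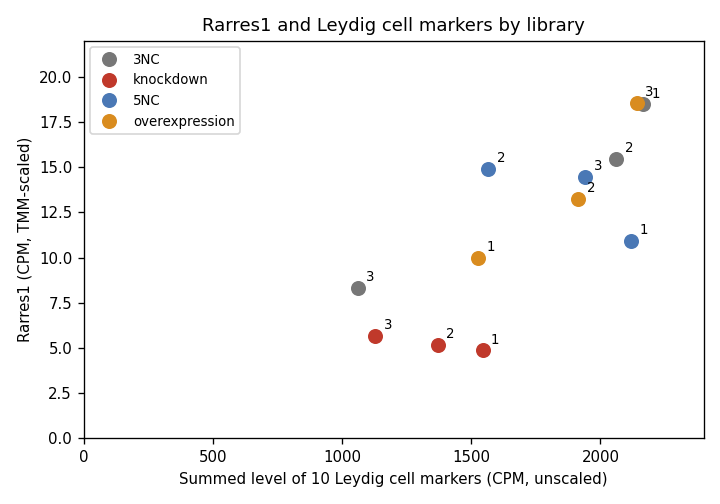
Rarres1 (y axis, TMM-scaled CPM) against the summed level of 10 Leydig cell markers (x axis, unscaled CPM) in the 12 libraries, coloured by group and numbered by replicate. The knockdown points lie between 4.87 and 5.67 CPM of Rarres1, below the other 9 libraries, over sums of 1128 to 1544 CPM.

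Markers of other cells were set beside the remaining genes. The 10 spermatocyte markers, which stand for cells in meiosis, summed to 1580 to 1852 CPM in 3NC and 1521 to 1595 CPM in the knockdown group. Of these, 9 had a log2 fold change below 0, with a median of -0.15 beside -0.58 for Itgb3bp, and none had an unadjusted p under 0.05, where 8731 of 16388 tested genes were below 0 and 5.64% were called in either direction. In overexpression against 5NC the median of the 10 was -0.09. Spo11, which makes the DNA breaks of meiosis, had a log2 fold change of -0.51 there (adjusted p = 0.0452 in edgeR), and the other 9 did not pass. Mean Spo11 was 61.7 CPM in 5NC and 43.3 CPM in the overexpression group, beside 44.7 CPM in 3NC and 40.5 CPM in the knockdown group. Among the 4 groups 5NC was thus the one apart. For Ptprt and Ston2, which are known from neurons, the 10 nervous tissue markers summed to 126.9 to 139.1 CPM in 3NC and 132.9 to 137.1 CPM in the knockdown group, which overlap. They summed to 125.5 to 132.2 CPM in 5NC and 139.9 to 140.9 CPM in the overexpression group, which do not overlap. Of the 7 tested nervous tissue markers in that comparison, 2 had a log2 fold change above 0 and 5 below, with a median of -0.09. The higher sum went with Map2, at 70.2 CPM in 5NC and 91.8 CPM in the overexpression group. Gfap was also higher, at 3.77 and 8.70 CPM, while Tubb3 was at 31.5 and 22.4 CPM. In 3NC and the knockdown group Map2 was at 83.0 and 91.9 CPM, Gfap at 6.65 and 3.62 CPM and Tubb3 at 24.4 and 23.3 CPM. The part of such cells in their values was not tested. The 7 blood markers summed to 39.2 to 80.8 CPM in 3NC, 43.7 to 61.1 CPM in the knockdown group, up to 58.4 CPM in 5NC and 52.1 to 101.3 CPM in the overexpression group. Among them the beta-globin genes Hbb-bs and Hbb-bt, near-identical copies whose reads can be shared, had log2 fold changes of -1.62 and -1.36 for knockdown against 3NC, both at an unadjusted p under 0.05. In overexpression against 5NC both passed (adjusted p = 0.000605 and 0.0492 in edgeR). Mean Hbb-bs and Hbb-bt were 7.37 and 1.47 CPM in the overexpression group and 0.0239 and 0.0235 CPM in 5NC. They were 11.03 and 2.716 CPM in 3NC and 3.576 and 1.059 CPM in the knockdown group. For both genes 5NC was thus the group apart, and the overexpression mean lay between those of 3NC and the knockdown group. The calls of Spo11, Hbb-bs and Hbb-bt were not followed through the other ways of processing. The other 3 tested blood markers did not pass in either comparison. Hba-a1, the most abundant of them, had 0.06 for knockdown against 3NC and 0.43 for overexpression against 5NC, and Alas2 had -0.22 and 0.07. The part of blood in the values of the 4 genes was not tested. Epididymis markers, which would mark tissue taken along with the testis, summed to 29.8 to 78.9 CPM in 3NC, 0.911 to 17.6 CPM in the knockdown group, 13.7 to 292.4 CPM in 5NC and 1.12 to 1.49 CPM in the overexpression group, with Lcn8 at 0 throughout. The epididymis sum was thus lower in every knockdown library than in any 3NC library, and lower in every overexpression library than in any 5NC library. In 5NC replicates 1 to 3 the sums were 13.7, 292.4 and 123.1 CPM and Ptprt was at 0.374, 1.27 and 0.787 CPM, so both had the same order there. In 3NC the sums were 40.0, 78.9 and 29.8 CPM and Ptprt was at 2.38, 3.60 and 3.17 CPM, in an order that differed for the lower pair. Ptprt was above 2 CPM in the 3NC libraries alone, and the sums of 5NC replicates 2 and 3 exceeded those of every 3NC library. The part of such tissue in the values of the 4 genes was not tested.

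The size of each difference was followed through the other ways of processing. Leaving out 1 library at a time moved the log2 fold change of knockdown against 3NC between -2.05 and -1.77 for Ptprt, 0.78 and 1.29 for Ston2, -0.65 and -0.46 for Itgb3bp and -1.68 and -1.17 for Rarres1. For Ston2, the lowest value came without knockdown replicate 3, its highest library, and the highest without 3NC replicate 3. For Rarres1, the value nearest to 0 came without 3NC replicate 1 and the farthest without 3NC replicate 3. In overexpression against 5NC, Rarres1 ranged from -0.20 to 0.25 and so took both signs, and Ptprt from 0.33 without 5NC replicate 1 to 1.15 without 5NC replicate 2. The adjusted p of the 4 genes in that comparison was at least 0.378 under every alternative.

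**Figure D5:**
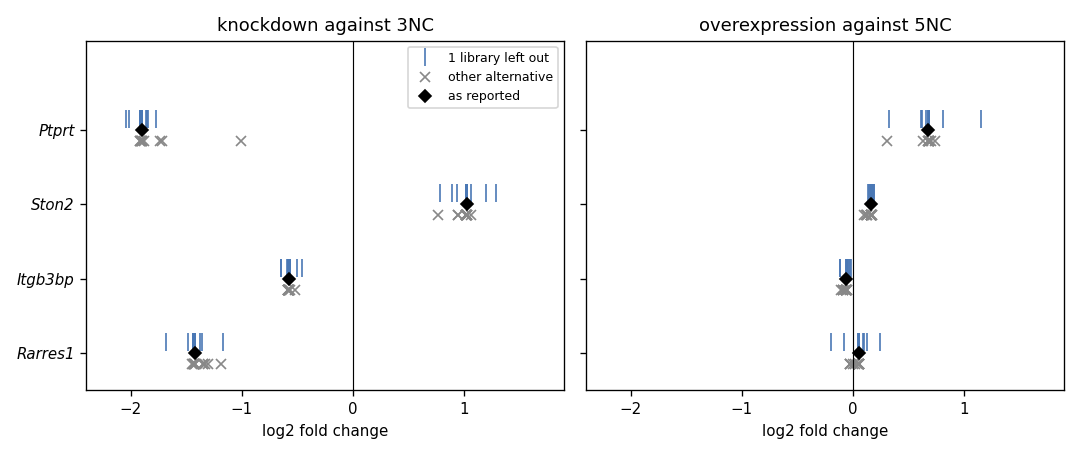
Log2 fold change (x axis) of the 4 genes as reported (black diamonds), with 1 library left out at a time (blue bars) and under the other alternatives (grey crosses), for knockdown against 3NC on the left and overexpression against 5NC on the right. On the left no value crosses 0, in the comparison that chose the genes, and the one distant cross of Ptprt at -1.005 is from the fit to log2(FPKM + 0.1).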

How the data were processed

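The authors deposited unscaled estimated counts, fractional for 12% of the values of a library, and FPKM values computed from reads aligned to mm10. The 4 genes and all lists were chosen with earlier results of these data known. Counts were rounded, filtered with filterByExpr and fitted in 1 model of all 12 libraries (edgeR 4.0.16, R 4.3.3, TMM, quasi-likelihood test, Benjamini-Hochberg threshold 0.05). The study used DEGseq, which has no term for the spread between libraries. Depth was 12719699 to 15771655 estimated reads, which limits Ptprt most. Alternatives used limma 3.58.1 and DESeq2 1.42.0. The script was tested on simulated data. Named genes were the 4 genes, their close relatives by role, pathway list genes passing in overexpression against 5NC (none did), the 2 nearest table genes on each side and the 3 genes of highest r. Aak1, Amph, Crabp1, Ptprj, Ptprd, Cenpi, Cenps, Rxra, Stra6, Stra8, the Leydig cell markers, Spo11, Hbb-bs, Hbb-bt, Hba-a1, Alas2, Map2, Gfap, Tubb3 and the first genes by p lie outside this rule and were named after their values were seen. Marker lists were summed as CPM without TMM scaling. Gene IDs matched RefSeq for 20630 of 20788 rows (99.2%), from which symbols, coordinates and promoters were taken. Transcripts were taken from GENCODE vM21. Another 18 per-sample columns, of 9 other samples, and 14 columns of averages were not used. Replicate numbers did not pair the libraries. No pair within a group agreed within sampling noise.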

Additional observations from a re-analysis of the deposited data

How the results depend on the processing

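Of 236 alternative values, 218 stayed on their side of the threshold where there was a test, or, for knockdown against 3NC, which has no test of the 4 genes, moved by less than the spread between replicates, or, for counts of genes, stayed within 1.5 times the reported count. They include Rarres1 in overexpression against 5NC, which did not pass and took both signs. For Ptprt, knockdown against 3NC gave a log2 fold change of -1.005 by limma-trend on log2(FPKM + 0.1) with no filter, an alternative chosen after seeing the data, in which the added 0.1 is close to the FPKM of Ptprt. With a minimum of 0.5 FPKM Ptprt had no value. The number of genes passing in overexpression against 5NC, 51 as reported, was 107 with only the 6 libraries compared, 159 without both libraries that stood apart, 328 in DESeq2, 82 by limma-trend on log2(FPKM + 0.1), and 9 to 87 with 1 library left out. In knockdown against 3NC, where 0 genes passed in edgeR and 924 had an unadjusted p under 0.05, it was 16 in DESeq2 and 0 to 12 with 1 library left out. Same-numbered libraries did not deviate together (r from -0.641 to 0.386 for the knockdown group and 3NC, and from -0.115 to 0.195 for the overexpression group and 5NC), so the numbers were not taken as pairs. With the replicate block, 21 genes passed in overexpression against 5NC and 0 in knockdown against 3NC. The cause of these changes was not tested. Ptprt, with 35 to 141 reads a group, is limited most by depth.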
